A study of Mus musculus with 68 samples.

Results

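The 8 libraries described here come from pharyngeal arch 1 (PA1) of mouse embryos labelled Hoxa2-/-, 5 at embryonic day 10.0 (E10.0) and 3 at E10.5, out of 68 libraries in the series. They were taken by their arch, genotype and stage labels, so that the step between the 2 stages could be described across all genes. The other libraries cover PA1 and pharyngeal arch 2 (PA2), wildtype and Hoxa2-/- labels and 4 stages from E9.0 to E10.5. All embryos carry the strain label CBA/Ca/J x C57BL/10, and the labels name no other allele or treatment. Per the series' design text each replicate is a single embryo, which gave both of its arches. Poly(A) RNA from hand-dissected whole arches was amplified with a low-input full-length cDNA kit that does not mark strand. Each value is a bulk value, in which fewer cells of a type and less RNA per cell cannot be told apart.

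PA1 is the swelling beside the embryonic throat from which the jaws form. It holds a core of mesoderm that gives jaw muscle, a filling of neural crest mesenchyme that gives cartilage, bone and connective tissue, and a coat of surface epithelium that sends growth signals to the mesenchyme. Over these stages crest cells that have filled the arch take up positional identities through homeobox and other transcription factor genes, while genes of the early, fast-growing embryo are turned down. Hoxa2 is a homeobox gene of PA2 that is not active in PA1 crest.

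Hoxa2, the gene named in the label, was at 0.190 to 0.628 counts per 1e+06 reads (CPM) in the 5 E10.0 libraries and at 0.181 to 0.588 CPM in the 3 E10.5 libraries. The group means were 0.378 ± 0.218 CPM (SD, n = 5) and 0.377 ± 0.204 CPM (SD, n = 3). PA2 of the same embryos held 87.2 to 113 CPM at E10.0 and 116 to 147 CPM at E10.5, above the 42.7 to 53.7 CPM and 54.5 to 63.3 CPM of wildtype-labelled PA2. The low level in PA1 is close to that of wildtype PA1 (0 to 0.320 CPM at E10.0), so it checks the arch and not the genotype. The PA2 levels go against a loss of the transcript, and the libraries are therefore called "labelled Hoxa2-/-" throughout.

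The 8 libraries held 10983864 to 16868515 reads assigned to genes, so that 3 reads, the limit that a count of 0 allows, correspond to 0.180 to 0.272 CPM. The cDNA molecules carry no identifiers, and this limit covers counting error only. A division of the series' libraries that the labels do not name shows in the summed level of Ski, Irf2bp2, Khdrbs3 and Ranbp9. That sum was 37.6 to 65.0 CPM at E10.0 and 31.8 to 42.9 CPM at E10.5 in labelled Hoxa2-/- PA1, and 33.4 to 45 CPM in the earlier group but 185 to 217 CPM at E10.5 in wildtype PA1. Both groups compared here therefore lie on the same side of the division. None of the 4 genes passed the test between them. All 4 differences on log2(CPM + 1) were below 0, with a median of -0.28 against -0.01 for all genes tested. Ranbp9 was lower at E10.5 without overlap.

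Between E10.0 and E10.5, 55 of 18428 genes tested (0.298%) passed an adjusted p of 0.05, 36 higher (0.195%) and 19 lower (0.103%) at E10.5. The test was limma on log2(CPM + 1), and every difference below is on that scale, on which changes of low genes come out smaller than they are. The genes that rose included Alx1, Tbx22, Islr, Osr2, Zmat4, Creb5, Frzb and Ednra. The genes that fell included Wfikkn1, Prtg, Lin28a, Otx2, Nuak2 and Trim71. Only 12 of the 36 and 5 of the 19 differed by at least 1 on the log2 scale. The median difference over all genes tested was -0.01. Without adjustment 1863 genes had a p under 0.05.

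**Figure D1:**
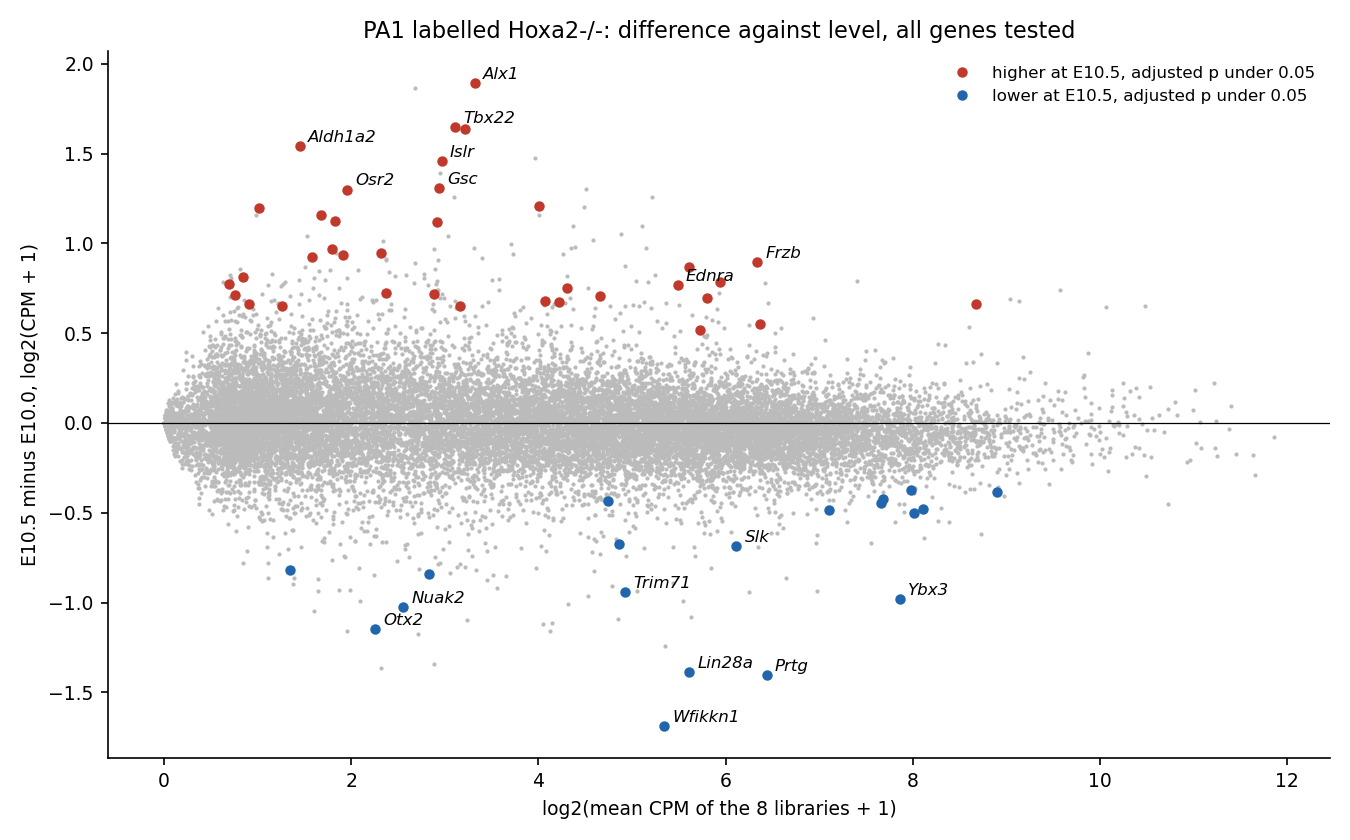
Difference between E10.5 (n = 3) and E10.0 (n = 5) in PA1 labelled Hoxa2-/- on log2(CPM + 1), against the log2 of the mean level of the 8 libraries plus 1, 1 point per gene tested. The 36 genes higher at E10.5 (red) reach 1.89 for Alx1 and the 19 lower genes (blue) reach -1.69 for Wfikkn1, while the other genes (grey) centre on -0.01.

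In 54 of the 55 genes the 3 E10.5 libraries did not overlap the 5 E10.0 libraries. Gsc was the exception. Over all genes tested 10.2% showed no overlap, 4.43% higher and 5.81% lower, so absence of overlap alone was common. E10.5 replicate 1 carried the most extreme value of its group in 34 of the 36 higher and 14 of the 19 lower genes. Without that library 4 genes passed, Tbx22, Ybx3, Slk and Gm43376, all of them among the 55. Without each of the other 7 libraries in turn, between 17 and 86 genes passed. All 55 kept their sign in every alternative fit in which they were tested, and none kept its call in all of them. Since the kit does not mark strand, reads of Lin28a, Trim71, Otx2, Bend4, Ednra and Mtmr11 cannot be told apart from those of genes annotated on the opposite strand with overlapping exons (Otx2os1 in the case of Otx2), and on the same strand exons of Islr overlap those of Islr2, and exons of Alx1, Otx2, Creb5 and Zcchc18 overlap those of predicted genes.

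A homeobox gene and a T-box gene of facial mesenchyme gave the largest rises. Alx1 (ENSMUSG00000036602, GRCm38 chr10:102998707-103030215, minus strand) encodes a homeobox factor needed for the mesenchyme of the midface. It was at 3.98, 5.40, 4.20, 2.16 and 2.73 CPM in E10.0 replicates 1 to 5 and at 30.9, 12.3 and 10.4 CPM in E10.5 replicates 1 to 3. The groups did not overlap, and E10.5 replicate 1 stood far above the rest of its group. Means were 3.69 ± 1.28 CPM (SD, n = 5) and 17.9 ± 11.3 CPM (SD, n = 3), a difference of 1.89 ± 0.35 (SE) with an adjusted p of 0.00314. Without E10.5 replicate 1 the difference was 1.44 with an adjusted p of 0.234. It held in each of the 7 other fits that left out 1 library.

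Tbx22 (ENSMUSG00000031241, GRCm38 chrX:107667964-107688978, plus strand) encodes a T-box factor whose loss causes cleft palate. It was at 2.27, 7.22, 4.32, 3.01 and 2.92 CPM in the E10.0 libraries and 15.2, 10.9 and 15.3 CPM in those of E10.5. The 3 later libraries lay close together and above all 5 earlier ones, of which replicate 2 was the highest. The means were 3.95 ± 1.98 CPM (SD, n = 5) and 13.8 ± 2.51 CPM (SD, n = 3). The difference of 1.65 ± 0.26 (SE) had an adjusted p of 0.000548 and passed in all 8 fits that left out 1 library, at 0.0200 without E10.5 replicate 1. With edgeR on the recovered reads its adjusted p was 0.102, and with a pseudocount of 0.25 it was 0.0589.

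**Figure D2:**
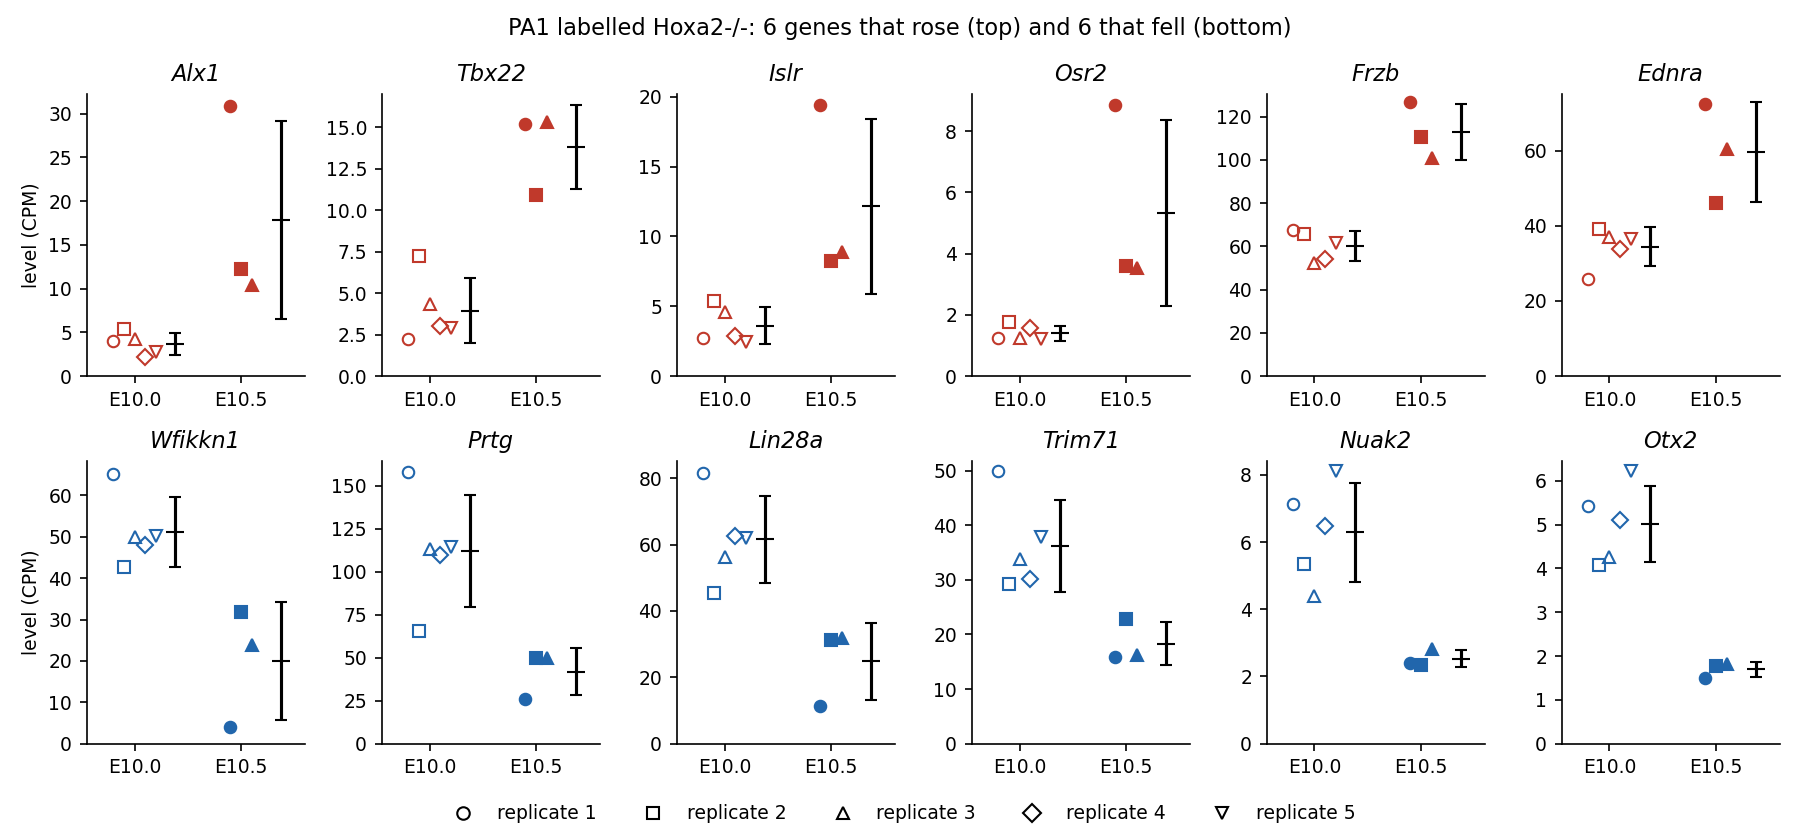
CPM in each library of PA1 labelled Hoxa2-/- at E10.0 (open symbols, 5 embryos) and E10.5 (filled symbols, 3 embryos) for 6 genes that rose (red) and 6 that fell (blue). Symbol shapes give the replicate number, which does not link embryos across stages, and bars give the mean ± SD. In each panel the 2 stages do not overlap, and for Alx1, Islr, Osr2, Wfikkn1 and Lin28a the circle of E10.5 replicate 1 lies apart from the other later libraries.

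Osr2, a zinc finger factor gene of the palate and tooth-forming mesenchyme, was at 1.24, 1.76, 1.26, 1.57 and 1.21 CPM in the E10.0 libraries and 8.84, 3.59 and 3.54 CPM in those of E10.5. The earlier libraries were nearly level, and all later ones lay above them. It rose by 1.30 ± 0.25 (SE) with an adjusted p of 0.00562. Creb5, which encodes a leucine zipper factor, was at 3.21 to 6.78 CPM and then at 12.3, 7.84 and 10.8 CPM, a difference of 1.12. Zmat4, which encodes a zinc finger protein, was at 8.40 to 12.6 CPM and then at 34.9, 18.6 and 19.5 CPM, a difference of 1.21. Without E10.5 replicate 1 the adjusted p was 0.435 for Osr2, 0.525 for Creb5 and 0.626 for Zmat4.

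Other genes that rose encode secreted and surface proteins. Frzb, a secreted antagonist of Wnt ligands that is known from cartilage-forming mesenchyme, was at 67.4, 65.9, 52.5, 54.0 and 61.6 CPM in the E10.0 libraries and 127, 111 and 101 CPM in those of E10.5. Every later library lay well above every earlier one. The difference was 0.90 ± 0.18 (SE) with an adjusted p of 0.0111. Islr, a secreted leucine-rich-repeat protein gene of stromal cells, was at 2.41 to 5.40 CPM and then at 19.4, 8.23 and 8.89 CPM, a difference of 1.46 with an adjusted p of 0.0261. Without E10.5 replicate 1 the adjusted p was 0.201 for Frzb and 0.625 for Islr.

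Ednra encodes the receptor for endothelin 1, the signal that gives the lower jaw its identity. It was at 25.7, 39.0, 37.1, 33.7 and 36.4 CPM in the E10.0 libraries and 72.4, 46.0 and 60.4 CPM in those of E10.5. All later libraries were above all earlier ones, by little for E10.5 replicate 2. The difference of 0.77 ± 0.18 (SE) had an adjusted p of 0.0434. Nectin4, which encodes a cell adhesion protein, rose by 0.94 (adjusted p of 0.0434) at a level of 4.83 to 8.24 CPM at E10.5. For both genes the call held in 2 of the 8 fits that left out 1 library, and without E10.5 replicate 1 the adjusted p was 0.649 for Ednra and 0.661 for Nectin4. Mtmr11, Flywch2 and Zcchc18, of which little can be said, rose by 0.71 to 0.72.

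The remaining genes that rose fall outside the naming rule, and those given here were chosen after their values were seen. Gsc, the goosecoid homeobox gene of the lower jaw, was at 3.98, 7.22, 2.76, 3.14 and 2.41 CPM in the E10.0 libraries and 17.7, 6.79 and 9.43 CPM in those of E10.5. E10.0 replicate 2 lay above E10.5 replicate 2, so the groups overlapped, and the difference of 1.31 had an adjusted p of 0.0297. Aldh1a2, the main enzyme of retinoic acid synthesis in the embryo, was at 0.120 to 0.691 CPM and then at 7.94, 1.44 and 2.27 CPM. Its difference of 1.54 ± 0.35 (SE) rests on few reads at E10.0 and on E10.5 replicate 1, without which it was 0.99 with an adjusted p of 0.832. For Gsc the adjusted p without that library was 0.696. The unnamed locus Gm43376, at 1.13 to 1.83 CPM and then at 4.21, 3.46 and 5.53 CPM, had the smallest adjusted p of all genes, 0.000111, and 0.00276 without E10.5 replicate 1, but 0.107 with edgeR on the recovered reads.

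Among the genes that fell, Wfikkn1 (ENSMUSG00000071192, GRCm38 chr17:25877628-25880858, minus strand), which encodes a secreted protein that binds growth differentiation factors, had the largest difference. It was at 65.3, 42.6, 50.1, 48.0 and 50.2 CPM in the E10.0 libraries and 4.09, 31.8 and 23.9 CPM in those of E10.5. All 3 later libraries were lower, and replicate 1 was far below the other 2. The difference was -1.69 ± 0.31 (SE) with an adjusted p of 0.00317, and -0.86 with an adjusted p of 0.611 without E10.5 replicate 1.

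Prtg (ENSMUSG00000036030, GRCm38 chr9:72806874-72917291, plus strand) encodes protogenin, an immunoglobulin-superfamily membrane protein of early neural and crest progenitors. Its levels were 158, 65.6, 113, 110 and 114 CPM at E10.0 and 26.1, 49.7 and 49.8 CPM at E10.5. E10.0 replicate 2 was the lowest of its group and still above every later library. The difference was -1.40 ± 0.26 (SE) with an adjusted p of 0.00314. It held in 7 of the 8 fits that left out 1 library, with an adjusted p of 0.201 without E10.5 replicate 1, and under 11 of the 12 other alternatives.

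Lin28a and Trim71 belong together by function. LIN28A is an RNA-binding protein that blocks the maturation of let-7 microRNAs, let-7 in turn represses both genes, and TRIM71 is an RNA-binding ubiquitin ligase of the same developmental clock. Lin28a (ENSMUSG00000050966, GRCm38 chr4:134003330-134018841, minus strand) was at 81.7, 45.4, 56.3, 62.6 and 62.0 CPM in the E10.0 libraries and 11.3, 31.2 and 31.9 CPM in those of E10.5. Trim71 (ENSMUSG00000079259, GRCm38 chr9:114507133-114564369, minus strand) was at 49.97, 29.3, 33.7, 30.1 and 37.9 CPM and then at 15.8, 22.8 and 16.1 CPM. For both genes all later libraries lay below all earlier ones, and E10.5 replicate 1 was the lowest library.

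Lin28a fell by 1.39 ± 0.25 (SE) with an adjusted p of 0.00314 and Trim71 by 0.94 ± 0.18 (SE) with an adjusted p of 0.00419. Without E10.5 replicate 1 the differences were -0.92 and -0.85, with adjusted p of 0.315 and 0.139. Of 19 tested genes on a list of the LIN28 and let-7 timing axis, these were the only ones to pass, and none rose. The list's median difference was -0.39 against -0.01 for all genes tested, and 13 of its 19 members were lower and 3 higher without overlap, against 5.81% lower and 4.43% higher over all genes. Among the 13, Nr6a1, an orphan nuclear receptor gene of the early embryo, was at 26.6 to 50.7 CPM and then at 9.69 to 21.4 CPM, with a difference of -1.09 and an adjusted p of 0.0948. Sall4, a zinc finger factor gene of pluripotent cells, had -0.94 (adjusted p of 0.0897), Lin28b -0.67 (0.131) and Mycn -0.55 (0.138). The 3 that were higher were Hmga2, which is itself a let-7 target, and the zinc finger genes Bcl11a and Bcl11b. Hmga2 had 0.40 (adjusted p of 0.426), Bcl11b 0.82 (0.483), and Bcl11a was at 15.5 to 29.8 CPM and then at 35.5 to 49.9 CPM (0.419).

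Mature let-7 was not measured here, since the libraries hold poly(A) RNA. Sequences are shown to let the letters of the 3′ untranslated regions (UTRs) of these genes be compared with the let-7 seed, bases 2 to 8 of the mature microRNA, which the capitals mark. RefSeq (GRCm38.p6) lists 9 mature sequences of the family with the same seed, of which these are the first and the last by name:
mmu-let-7a-5p: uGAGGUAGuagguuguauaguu
mmu-miR-98-5p: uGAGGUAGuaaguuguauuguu

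The search for the letters CTACCTC, the reverse complement of that seed on the transcript's strand, was chosen after the called genes were known. It covered the longest annotated 3′ UTR of each gene. Of the 13 matches in genes that fell, the 27-base windows of all those in Lin28a, Trim71 and Prtg are shown 5′ to 3′ on the transcript's strand, with the match in capitals. The Lin28a windows lie at chr4:134005182-134005208 and chr4:134004544-134004570, the first Trim71 window at chr9:114512465-114512491 and the Prtg windows at chr9:72912561-72912587 and chr9:72913991-72914017 (GRCm38).
Lin28a match 1: cagcctgttgaaCTACCTCatttttgc
Lin28a match 2: atcgccacaaacCTACCTCactgtgtt
Trim71 match 1: attgcctaagtcCTACCTCagcttaaa
Trim71 match 2: gataatttctatCTACCTCaactcttt
Trim71 match 3: agtatggattttCTACCTCaattttgg
Trim71 match 4: gcaaaaagttgtCTACCTCacgtcggc
Prtg match 1: tctgctgaatagCTACCTCagtttgct
Prtg match 2: ctcctgtttataCTACCTCctttttaa

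An A follows every match in Lin28a and Trim71 and the first in Prtg, and C or T follows the 6 others in genes that fell. Among genes that rose an A follows the matches in Ptgr1 and Zmat4. Of the 19 genes that fell 8 held at least 1 match (42.1%): Lin28a, Trim71, Prtg, Nuak2, Nsun2, Slk, Ptprj and Bend4. Of the 32 genes that rose and have an annotated 3′ UTR 4 held a match (12.5%), and of all 13807 genes tested with one 1484 did (10.75%). The median UTR length was 1929 bases for the genes that fell, 896.5 for those that rose and 1211 for all, and longer UTRs hold a given run of letters more often. A match is a description of the letters and not a tested site.

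Otx2, a homeobox gene of the forebrain, midbrain and the front of the head that is also known from PA1 mesenchyme, was at 5.42, 4.08, 4.26, 5.10 and 6.22 CPM in the E10.0 libraries and 1.504, 1.76 and 1.81 CPM in those of E10.5. The 3 later libraries were nearly level. The difference was -1.15 ± 0.27 (SE) with an adjusted p of 0.0324, a call that held in 1 of the 8 fits that left out 1 library. On a list of 9 brain neuroepithelium genes it was the only one to pass, and the list's sum was 22.1 to 32.4 CPM at E10.0 and 16.2 to 32.0 CPM at E10.5. Nuak2, a kinase gene of the AMPK family, was at 4.38 to 8.12 CPM and then at 2.41, 2.35 and 2.81 CPM. It fell by 1.03 ± 0.20 (SE) with an adjusted p of 0.00447, and with 0.0927 without E10.5 replicate 1.

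Ybx3 and Slk were low in a different library. Ybx3, a cold-shock domain RNA- and DNA-binding protein gene, was at 354, 259, 255, 247 and 271 CPM in the E10.0 libraries and 188, 213 and 66.4 CPM in those of E10.5. Slk, a kinase gene of the cytoskeleton, was at 83.1, 78.7, 88.9, 71.8 and 73.3 CPM and then at 55.4, 61.9 and 33.6 CPM. In both genes E10.5 replicate 3, the library with the fewest reads of the 8, was the lowest. The differences were -0.98 for Ybx3 (adjusted p of 0.0138) and -0.69 for Slk (0.0111). Without E10.5 replicate 3 they were -0.46 and -0.42, with adjusted p of 0.380 and 0.240.

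Smaller differences were found in other genes that fell. Slc16a1, a lactate and pyruvate transporter gene, was at 249 to 312 CPM and then at 174 to 220 CPM, and fell by 0.50 with an adjusted p of 0.0225. Pus7, a pseudouridine synthase gene, fell by 0.48 (0.0478), Ptprj, a receptor phosphatase gene, by 0.84 (0.0351) and Bend4 by 0.68 (0.0261). Outside the naming rule, and named after their values were seen, Noc2l, Ftsj3 and Nsun2, which act in ribosome assembly or RNA methylation, fell by 0.37 to 0.48, and Ppat, the first enzyme of purine synthesis, fell by 0.43. Without E10.5 replicate 1 the adjusted p of these 8 genes lay between 0.435 and 0.945.

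The earlier stages of the same arch give levels that did not enter the contrast. Of the 36 genes that rose, 25 had a higher mean at E9.5 (n = 5) than at E9.0 (n = 4), against 51.2% of all genes tested. Of the 19 that fell, 13 had a lower mean at E9.5 than at E9.0, against 48.8% of all genes. The Lin28a means were 185, 129, 61.6 and 24.8 CPM from E9.0 to E10.5, those of Prtg 410, 256, 112 and 41.9 CPM, and those of Trim71 82.8, 56.6, 36.2 and 18.3 CPM. Otx2 went from 30.1 and 15.6 CPM to 5.02 and 1.69 CPM. These 4 genes had lower means at every stage.

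Other genes that moved between E10.0 and E10.5 had a different course before. Alx1 had means of 10.4 CPM at E9.0, 4.58 CPM at E9.5 and 3.69 CPM at E10.0 before 17.9 CPM at E10.5, so its lowest mean was that of E10.0. Ednra had 52.3 and 31.3 CPM at the first 2 stages, then 34.4 and 59.6 CPM. Wfikkn1 had 31.2, 43.4, 51.2 and 19.9 CPM, with the highest mean at E10.0. Tbx22 had no read in any E9.0 library and a mean of 0.449 CPM at E9.5.

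**Figure D3:**
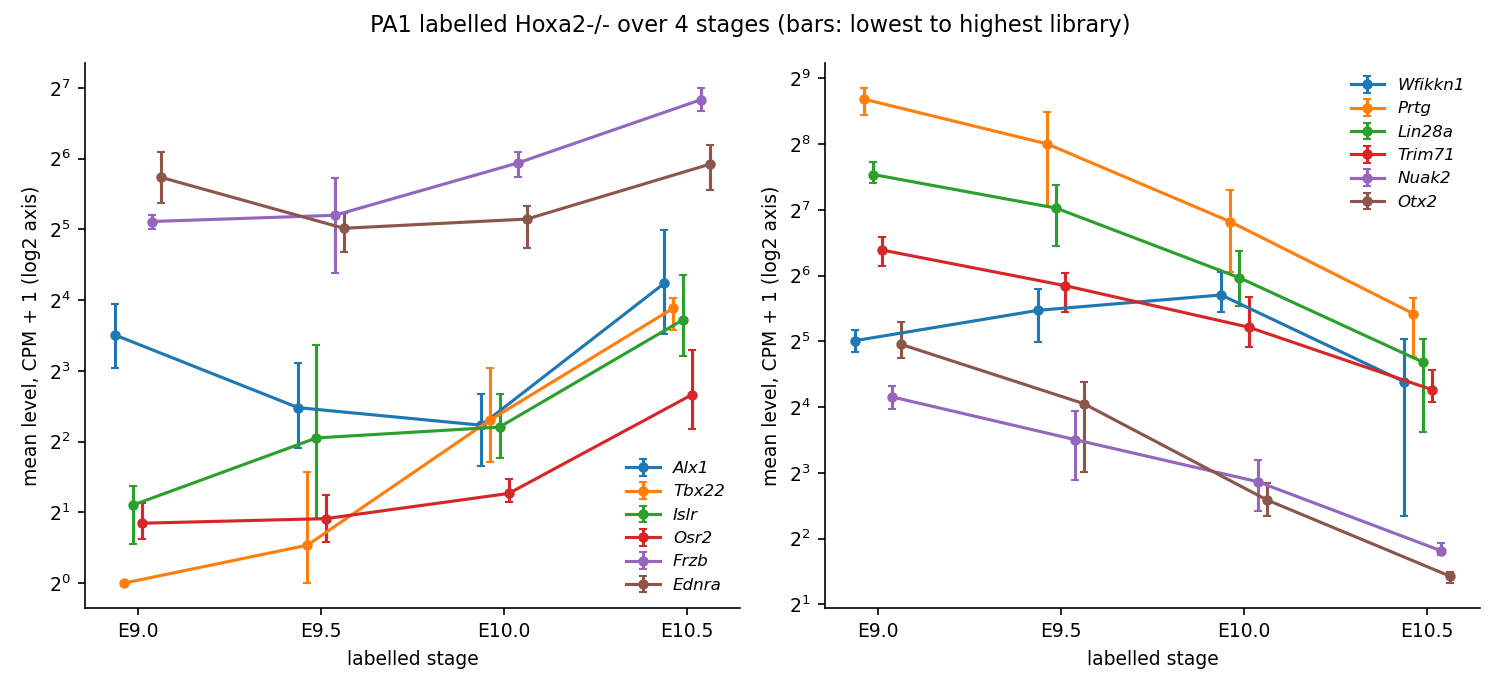
Mean level (CPM + 1, log2 axis) of 6 genes that rose (left) and 6 that fell (right) in PA1 labelled Hoxa2-/- at 4 stages, with bars from the lowest to the highest library (n = 4, 5, 5 and 3). Lin28a, Prtg, Trim71, Nuak2 and Otx2 have lower means at each stage, while Alx1 has its lowest mean, 3.69 CPM, at E10.0 and Wfikkn1 its highest, 51.2 CPM, at the same stage.

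Lists of genes were counted in the same fit, some known to act in the arch and others for cell functions, other tissues, sex and library quality. Of 37 lists 9 held a gene that passed and 28 held none, while 0.298% of all genes tested passed. Otx2 counts in both the jaw homeobox and the brain neuroepithelium list. In the lower-jaw programme the 6 Dlx genes, which set dorsal against ventral identity, had differences of -0.58 to 0.28, and none passed. Of the 6, 3 (Dlx2, Dlx3 and Dlx4) were lower and 0 higher without overlap, against 5.81% lower and 4.43% higher over all genes. Of 10 genes of endothelin signalling and the Hand factors only Ednra passed. Its ligand Edn1 was at 5.59 to 8.17 CPM and then at 1.87, 4.57 and 4.35 CPM, lower in every later library, with a difference of -0.81 and an adjusted p of 0.177. Hand2, a target of this signal, had 0.06.

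Of 13 jaw homeobox genes 1 rose (Gsc) and 1 fell (Otx2), with a median difference of 0.37 against -0.01 for all genes. Lhx6, a LIM homeobox gene of oral mesenchyme, was at 16.1 to 29.3 CPM and then at 45.8, 36.9 and 40.8 CPM, with 0.87 and an adjusted p of 0.220. Msx1, a homeobox gene of the distal arch, was at 248 to 303 CPM and then at 379, 390 and 389 CPM, with 0.43 and an adjusted p of 0.448. In both genes every later library lay above every earlier one.

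Of 14 homeobox genes of head mesenchyme Alx1 alone passed. Shox2, a homeobox gene of palate and limb mesenchyme, was at 0.444 to 1.07 CPM and then at 2.83, 2.29 and 0.816 CPM, an overlap, with 0.77 and an adjusted p of 0.0897. Alx4, a relative of Alx1 without overlap, was at 12.2 to 20.7 CPM and then at 35.8, 34.2 and 31.8 CPM, with 1.02 and an adjusted p of 0.106. Fitted on the 2 compared groups alone it passed, at 0.0152. The Prrx1 difference was 0.17 and that of Prrx2 -0.02. Of 17 forkhead and T-box genes only Tbx22 passed. Tbx1, a T-box gene of arch mesoderm and epithelium, had -0.82 (adjusted p of 0.207), Foxl2 -0.66 (0.0931) and Foxc1 -0.64 (0.108).

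**Figure D4:**
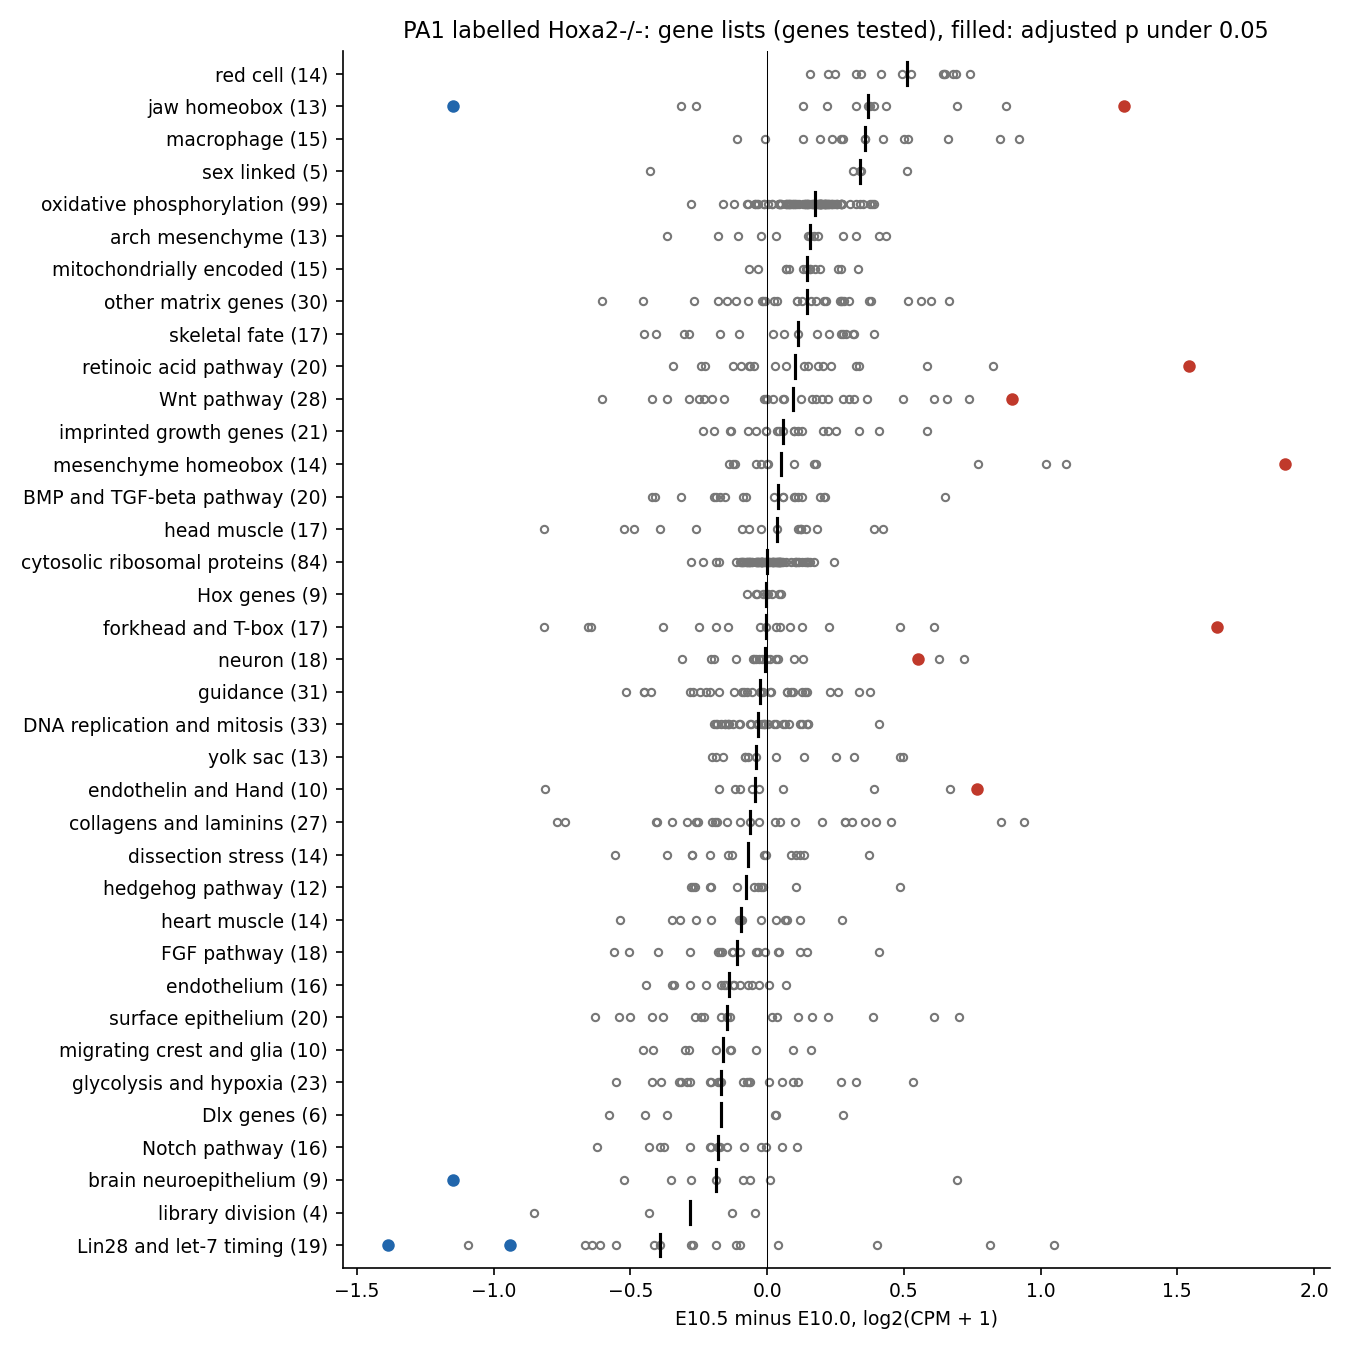
Difference between E10.5 and E10.0 in PA1 labelled Hoxa2-/- on log2(CPM + 1) for each tested gene of 37 lists (number tested in brackets), with the list's median as a bar. Filled points passed an adjusted p of 0.05 (red higher, blue lower). "Library division" is the list of 4 genes that mark the division of the libraries. The medians run from -0.39 for Lin28 and let-7 timing to 0.51 for red cell genes.

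Among signalling pathways Frzb was the only 1 of 28 Wnt pathway genes to pass, and Aldh1a2 the only 1 of 20 retinoic acid genes. Wnt5a, a ligand known for the outgrowth of limbs and face, was at 56.9 to 77.1 CPM and then at 40.3, 49.2 and 43.5 CPM, lower in every later library, with -0.60 and an adjusted p of 0.225. Rspo2, of the same list, went the other way with 0.66 (0.225), and its stages overlapped. None of 18 FGF pathway genes, 20 BMP and TGF-beta genes, 12 hedgehog genes and 16 Notch genes passed. Spry1, a feedback inhibitor of FGF signalling, had -0.56 (adjusted p of 0.317), and Bmp7 had -0.41 (0.258). In the Notch list 14 of the 16 differences were below 0 and the median was -0.18, against -0.01 for all genes. The list of endothelial genes leaned the same way, with 14 of 16 below 0 and a median of -0.14.

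None of 17 skeletal fate genes and 17 head muscle genes passed. Cbfb, the partner of the Runx factors, had 0.32 (adjusted p of 0.234) and Sox5 0.29 (0.429). Sox9, the master factor of cartilage, had -0.41 with an adjusted p of 0.475. None of 27 collagen and laminin genes and 30 other matrix genes passed. Of the 27, 8 were lower and 2 higher without overlap, against 5.81% lower and 4.43% higher over all genes. Lama5, a laminin chain gene of epithelial basement membranes, was at 29.6 to 37.6 CPM and then at 19.4 to 21.9 CPM, with -0.74 and an adjusted p of 0.0999. Mfap4, a microfibril protein gene, was at 61.7 to 84.9 CPM and then at 99.2 to 136 CPM, with 0.67 and 0.120.

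Of 33 DNA replication and mitosis genes none passed, and their differences had a median of -0.03. None of 84 cytosolic ribosomal protein genes passed, with a median of 0.00. Of 99 oxidative phosphorylation genes 88 had differences above 0, with a median of 0.17, and none passed. Of the 99, 3 were higher and 1 lower without overlap, against 4.43% higher and 5.81% lower over all genes. The list's sums overlapped, at 12334 to 14822 CPM and then 14097 to 15457 CPM. Formed by symbol, the list also holds pseudogenes and assembly factors. Of 23 glycolysis and hypoxia genes 16 had differences below 0, with a median of -0.17, and none passed. Of the 23, 6 were lower and 1 higher without overlap, against 5.81% lower and 4.43% higher over all genes.

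Markers of the cell types in the arch were counted beside these genes. The summed level of 13 arch mesenchyme genes was 997 to 1170 CPM at E10.0 and 1240 to 1315 CPM at E10.5, and that of 20 surface epithelium genes 943 to 1111 CPM and then 855 to 883 CPM. Neither sum overlapped between the stages. In the mesenchyme list 9 of the 13 differences were above 0, with none past the test. Without overlap 3 genes were higher and 1, Dlx2, lower, against 4.43% higher and 5.81% lower over all genes. In the epithelial list 12 of the 20 differences were below 0 and 8 above, and none passed. Without overlap 8 genes were lower and none higher, against the same shares of all genes. Krt7, a keratin gene, was at 47.4 to 52.4 CPM and then at 29.9 to 37.2 CPM, with -0.54 and an adjusted p of 0.121, while Krt5, the keratin of basal cells, had 0.70 (0.158). Edn1, Wnt5a, Lama5 and Foxl2, named above from other lists, were also lower at E10.5 without overlap, as were 5.81% of all genes tested. The part of the tissue makeup in these differences was not tested.

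The summed neuron list was 133 to 143 CPM and then 163 to 201 CPM, and Gap43, a growth cone gene, was the only one of its 18 tested genes to pass, at 0.55 with an adjusted p of 0.0499. Gap43 itself went from a mean of 68.9 CPM to 102 CPM, and the list's median difference was -0.01, with 9 genes below 0. Red cell genes summed to 2318 to 8175 CPM at E10.0 and 3418 to 8654 CPM at E10.5 and were highest in E10.0 replicate 4 and E10.5 replicate 2. With both libraries left out, an alternative chosen after the values were seen, 60 genes passed, 22 higher and 38 lower, of which 30 were among the 55. Macrophage genes summed to 14.0 to 25.8 CPM and 19.4 to 47.1 CPM, endothelial genes to 267 to 367 CPM and 276 to 291 CPM, and heart muscle genes to at most 12.4 CPM. None of these 4 lists held a gene that passed.

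PA2 of the same 8 embryos gave 44 genes (0.239%) for the same step, 17 higher (0.0923%) and 27 lower (0.147%). The balance turned with the pseudocount, to 33 higher and 24 lower at 5 and to 5 higher and 26 lower at 0.25. Since both arches of an embryo were sampled, PA2 is not an independent repeat. Of the 55 genes of PA1, 8 were also called in PA2 in the same direction, which is 14.5% of the 55 and 18.2% of the 44. The 4 that fell in both arches were Wfikkn1, Prtg, Lin28a and Plpp2. Wfikkn1 fell by 1.74 in PA2, Prtg by 1.45 and Lin28a by 1.21, with adjusted p of 0.00176, 0.00166 and 0.0124. Among the 4 that rose in both, Ednra rose by 0.76 (adjusted p of 0.0470) and Gsc by 1.44 (0.0158).

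Of the 55 genes 34 of 36 and 19 of 19 had the same sign in PA2, with medians of 0.42 and -0.48 there against 0.84 and -0.69 in PA1, where they had been chosen. The share of all genes tested with the same sign in both arches was not computed. Since the arches come from the same embryos, these counts have no baseline to be judged by. The genes on the other side of 0 were Alx1 and Kcnj2, the latter an inward rectifier potassium channel gene. Alx1 differed by -0.17 in PA2, and the difference of the 2 steps was -2.07 with an adjusted p of 0.857. No gene passed the test of the difference between the arches (0%), with 338 at an unadjusted p under 0.05. With edgeR 0 genes passed and 333 were under 0.05 unadjusted. With the embryo as a block, which pairs the 2 arches, 0 genes passed and 586 were under 0.05 unadjusted. Each of these unadjusted counts is below the number that chance alone gives at 0.05. The main fit leaves out the pairing of the arches, whose values within an embryo correlated at 0.22, and is conservative for this difference. A pseudocount of 5 and a fit on the compared groups alone gave 1 gene each.

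In wildtype PA1 3798 genes (20.6%) passed between E10.0 and E10.5, 1694 higher (9.19%) and 2104 lower (11.4%). There stage and the division of the libraries cannot be told apart, and the values are set side by side only. Of the 55 genes 51 were called in the same direction (92.7% of the 55, 1.34% of the 3798) and 0 in the opposite one. The exceptions were Slk at 0.17, Fgfbp1 at -0.41, AU022252 at 0.28 and Fam181b at 0.26, with adjusted p of 0.442, 0.150, 0.344 and 0.253. In the same wildtype libraries Alx1 had 2.78, Tbx22 2.36 and Lin28a -3.32.

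**Figure D5:**
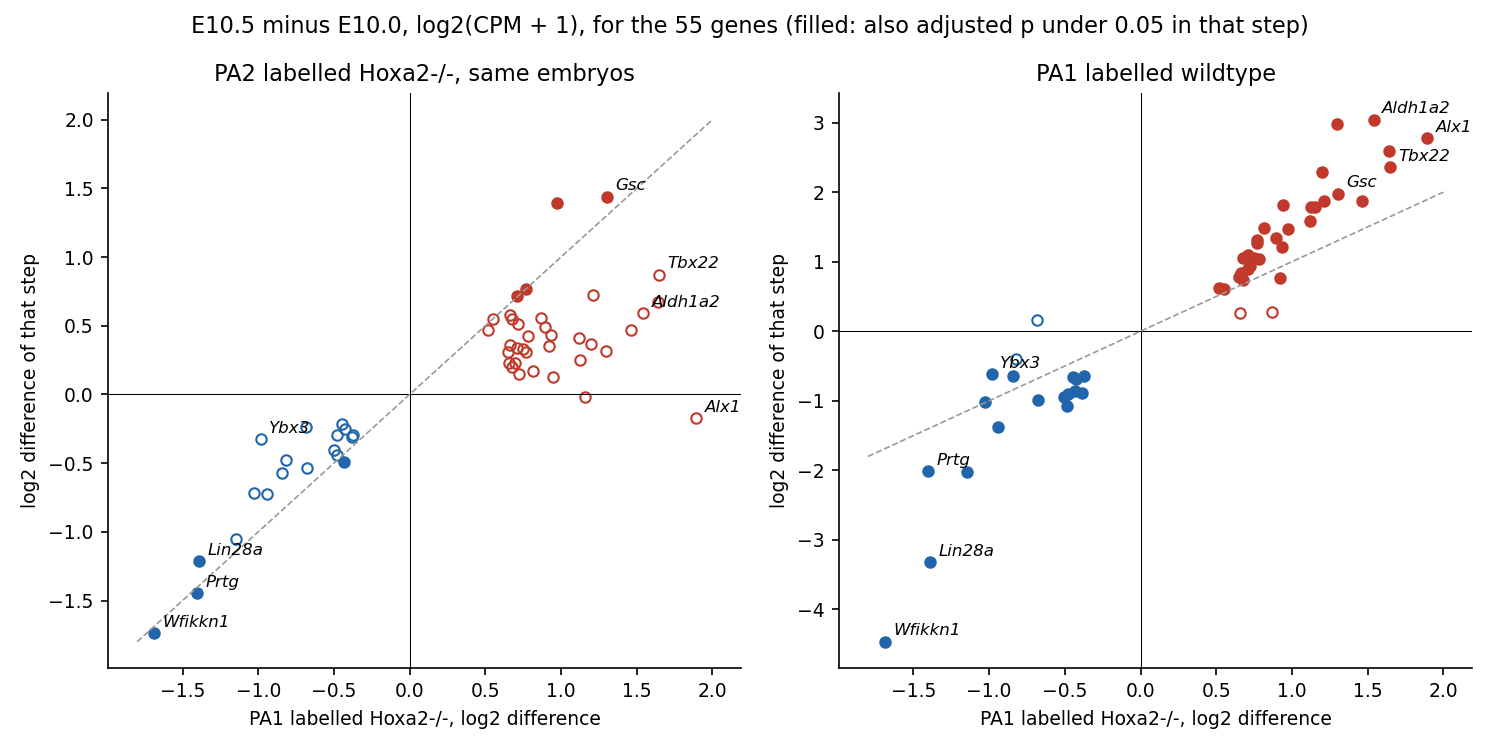
Differences between E10.5 and E10.0 on log2(CPM + 1) of the 55 genes in PA1 labelled Hoxa2-/- (x axis) against those in PA2 of the same embryos (left) and in wildtype PA1 (right), red for genes that rose and blue for genes that fell. Filled points also passed in the step on the y axis (8 in PA2, 51 in wildtype PA1), and the dashed line marks equal values. Alx1 lies at 1.89 in PA1 and at -0.17 in PA2.

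A score for developmental stage was formed after the values were seen, to place each library on 1 scale. It is the mean log2(CPM + 1) of 665 genes higher minus that of 483 genes lower at E10.5 than at E9.5 in wildtype PA1 by at least 1 and without overlap, groups on 1 side of the division. Wildtype E10.5 libraries scored 0.48 to 0.73 and wildtype E9.5 libraries -2.51 to -1.70. The labelled Hoxa2-/- PA1 libraries scored -0.94, -0.70, -0.68, -0.73 and -0.86 in the E10.0 group, and 0.11, -0.15 and -0.23 in the E10.5 group. The later libraries lay above the earlier ones and below those of wildtype E10.5, and replicate 1, the extreme library in most called genes, scored highest. The called genes were not taken out of the score, so the place of replicate 1 is not a separate observation. PA2 of the same embryo also scored highest of its group, at 0.06 against -0.45 and -0.42. The score genes were chosen for their difference between the wildtype E9.5 and E10.5 libraries, which by itself sets those libraries towards the ends of the scale. The labelled Hoxa2-/- libraries also lie on the other side of the division from those that defined the score. Their distance from wildtype therefore cannot be told apart from the choice of genes or from the division.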

How the data were processed

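The authors deposited 1 table of 21948 genes by 68 libraries. Its values are a signal in counts per 1e+06 reads (CPM) with library sizes scaled between samples, as the values themselves show: in each column all values are whole multiples of the value of 1 read (100% within 0.05 reads, largest distance 9.34e-05 reads). Per the submitters' processing notes, bcl2fastq 2.18, TopHat2 2.1.1, R 3.3.2 and mm10 were used. The program that counted reads, its annotation and its handling of strand are not given in the sources used here. Library totals recovered from the deposited signal were 8912251 to 20619153 reads over all libraries.

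Genes with at least 1 CPM in at least 3 libraries were kept (18428). limma 3.58.1 in R 4.3.3 was fitted on log2(CPM + 1), an added log2 step, with 1 mean for each of the 16 groups. The prior variance was trended, tests were two-sided on all 68 libraries, and p was adjusted by Benjamini-Hochberg over the genes kept, at a threshold of 0.05. The script was tested on simulated data. Alternatives were 2 other pseudocounts, other filters, median-of-ratios scaling, a sex covariate, replicate blocks, only the compared groups, edgeR 4.0.16 on the recovered reads, and each library left out. p-values measure the spread between libraries within groups, pooled over all 16 groups. The main fit treats the 2 arches of an embryo as separate libraries.

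The libraries, gene lists and tests were chosen with earlier results of these data known. The naming rule took, in each direction, the 12 genes with the largest difference among those that passed, with a mean of at least 5 CPM in the higher group, no overlap and a gene symbol. Within lists, most members were given by smallest p. Hand2, Msx1, Prrx1, Prrx2 and Sox9 were given for their role in the arch. Krt5, Hmga2, Bcl11a, Bcl11b, Dlx2, Dlx3 and Dlx4 were given for their direction or absence of overlap. The members not given by smallest p were chosen after their values were seen. Levels are compared only within a gene, since the values are not per length. The test had been planned for plain CPM and was kept for this scaled signal.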

Additional observations from a re-analysis of the deposited data

Results flagged for a closer look

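In 4 of 38 values tested in the group of 5 E10.0 libraries, 1 library lay far from the rest by Dixon's test at the 95% level, which chance gives in about 1 of 20 groups. Ybx3 was at 354.3 CPM in E10.0 replicate 1, against 247 to 271 CPM in the other 4. Zmat4 was at 12.56 CPM in E10.0 replicate 2, against 8.40 to 9.36 CPM. The summed red cell list reached 8175 CPM in E10.0 replicate 4, against 2318 to 3317 CPM, and the summed yolk sac list reached 46.07 CPM in the same library, against 3.24 to 5.08 CPM.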

How the results depend on the processing

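Of the count of 55 genes (65.5% of them higher), the alternatives that moved it most were the pseudocount and the choice of libraries. With a pseudocount of 0.25 there were 25 genes (40% higher) and with 5 there were 107 (73.8% higher). Leaving out 1 library gave 4 to 86 genes, 4 without E10.5 replicate 1 (50% higher), 17 without E10.0 replicate 1, 21 without replicate 4, 23 without replicate 3, 30 without replicate 5, and 86 without E10.5 replicate 2 (48.8% higher). E10.5 replicate 1 and E10.0 replicate 2 left out together, chosen after the values were seen, gave 3 genes. With only the compared groups there were 70 genes (52.9% higher), of which 23 were among the 55, and edgeR on the recovered reads gave 40, all among the 55. The cause of these changes was not tested. For PA2 of the same embryos, only the compared groups gave 22 genes (18.2% higher, against 38.6%), edgeR 13 (23.1%), a filter of 5 CPM 39 (28.2%), and leaving out 1 library 4 to 70: 4 without E10.5 replicate 1, 24 without E10.5 replicate 3, 12 without E10.0 replicate 1 or 5, and 70 without E10.0 replicate 2. For the difference between the arches, a pseudocount of 5 and only the compared groups gave 1 gene each, and leaving out 1 library gave 0. In wildtype PA1 leaving out 1 library gave 2559 to 3949 genes. The remaining alternatives stayed within 1.5 times the count, and the sign was reversed for none of the 55 genes. Changes of sign in list members that had not passed were not counted. Each replicate is a single embryo, so the replicate numbers do not pair embryos across stages. The deviations of same-numbered libraries correlated at -0.03, -0.05 and 0.20, and those of differently numbered libraries at -0.147 to 0.188. Whether a number stands for a shared litter or preparation cannot be told from so few pairs. With the replicate number as a block 59 genes passed (47 among the 55), and with the embryo as a block 61 (52 among the 55). The 3 later embryos limit the precision: the smallest difference that passed was -0.37.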
